A study of Mus musculus with 12 samples.

Results

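The mRNAs of 10 genes that encode CC chemokines, Ccl2, Ccl3, Ccl4, Ccl5, Ccl6, Ccl7, Ccl9, Ccl17, Ccl22 and Ccl24, were followed across macrophages differentiated with solvent, olaparib or MNA. The 10 genes were taken by name from the 35275 genes listed for each library, and all 10 were present and passed the filter on low counts that left 12849 genes for testing. The cells were bone marrow-derived macrophages (BMDMs) of wildtype mice, cultured for 6 days with M-CSF, IL-4 and IL-10, so all groups carried the cytokines of M2 differentiation. DMSO, the solvent control, olaparib, an inhibitor of PARP enzymes, or MNA (methyl-nicotinamide, a derivative of NAD) was present throughout, with 4 libraries in each group numbered 1 to 4. The labels do not say which cultures or mice the numbers stand for. The legend of the study gives 4 donor mice, so p-values measure the spread between these 4 libraries a group, which come from a culture model and not from macrophages taken from a tissue.

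CC chemokines are small secreted proteins with an adjacent pair of cysteines near their amino end, and they guide leukocytes by binding G protein-coupled receptors on the surface of those cells. Macrophages are a main source of them, and the set a macrophage makes depends on its state: Ccl17, Ccl22 and Ccl24 are known as products of macrophages exposed to IL-4, whereas Ccl2, Ccl3, Ccl4, Ccl5 and Ccl7 are known from inflammatory activation. Ccl2 and Ccl7 bind CCR2 and attract monocytes, Ccl6 and Ccl9 bind CCR1, Ccl3, Ccl4 and Ccl5 attract T cells and monocytes, Ccl17 and Ccl22 bind CCR4 on T cells, and Ccl24 binds CCR3 on eosinophils.

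The libraries held 21146291 to 31446849 counts on genes, and levels are given as CPM (counts divided by the TMM-scaled library size in units of 1e6). MNA replicate 2 went against its label: on the first principal component of all tested genes, with 49.8% of the variance, it lay at -35.97, within the DMSO range of -43.68 to -33.64, while the other MNA libraries lay at 59.91 to 63.38. It stayed in the fit and is shown apart, and the results for MNA are also given without it. The macrophage markers summed to 3900 to 5050 CPM with DMSO, 8500 to 10200 with olaparib and 3630 to 7490 with MNA, and all 8 were detected. Of 7 other cell type lists, the T and NK cell markers summed to 2.79 to 6.2 CPM with DMSO, 11.7 to 22.9 with olaparib and 40.5 to 61.0 in MNA replicates 1, 3 and 4, the neutrophil markers to 1.34 to 10.6, 2.93 to 3.89 and 4.73 to 68.3, and the eosinophil markers to 3.78 to 6.95, 31.1 to 58.5 and 7.0 to 9.99. The dendritic cell markers summed to 18.2 to 21.3, 19.4 to 25.2 and 20.5 to 34.9 CPM in these groups, those of basophils and mast cells to 4.96 to 8.09, 6.1 to 9.86 and 5.27 to 8.18, those of B cells to 0.281 to 1.68, 1.27 to 2.79 and 3.3 to 6.83, and those of stromal cells to 0.369 to 0.825, 0.707 to 1.85 and 1.66 to 3.06. No listed marker was at 0 in all 12 libraries, and Epx, Il5ra, Fcer1a and Col3a1 had at most 3 counts in every library. Single genes made up much of some sums. With olaparib Lyz2 alone was at 5110 to 6560 CPM and Siglecf at 30.5 to 58.2, and Gzmb was at 30.7 to 51.3 in MNA replicates 1, 3 and 4. Of the 8 macrophage markers 4 were higher and 1 lower with olaparib than with DMSO at an adjusted p under 0.05 in edgeR. Of all tested genes 14.3% were higher and 12.8% lower. The mean of Cd68 was 1230 CPM with DMSO and 839 with olaparib.

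The genes lie on 3 chromosomes (build GRCm38). On chromosome 11 are the 2 CCR2 ligand genes Ccl2 (ENSMUSG00000035385, chr11:82035571-82037453, plus strand) and Ccl7 (ENSMUSG00000035373, chr11:82045712-82047525, plus strand). Further along the same chromosome are Ccl5 (ENSMUSG00000035042, chr11:83525778-83530518), Ccl9 (ENSMUSG00000019122, chr11:83572919-83578636), Ccl6 (ENSMUSG00000018927, chr11:83587882-83593087) and Ccl3 (ENSMUSG00000000982, chr11:83647844-83649355) on the minus strand, and Ccl4 (ENSMUSG00000018930, chr11:83662584-83664683) on the plus strand. Ccl22 (ENSMUSG00000031779, chr8:94745590-94751699) and Ccl17 (ENSMUSG00000031780, chr8:94810453-94812036) share chromosome 8, both on the plus strand. Ccl24 (ENSMUSG00000004814, chr5:135569937-135573049, minus strand) stands alone on chromosome 5.

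The coding sequence around the adjacent cysteine codons, in capitals, is what names the family, and 30 bases of it from the GENCODE transcripts of GRCm38 are shown for 9 of the genes, 5′ to 3′ on the coding strand. The pair lies in exon 2 of 7 of these genes and in exon 3 of Ccl6 and Ccl9. Ccl24 has a second adjacent pair at codon 19, upstream of the pair shown, which starts at codon 33.
Ccl2: ctcaccTGCTGCtactcattcaccagcaag
Ccl7: tccacaTGCTGCtatgtcaagaaacaaaag
Ccl6: tcagacTGCTGCttctcttatgccacacag
Ccl9: tcagatTGCTGCctgtcctataactcacgg
Ccl4: acttccTGCTGTttctcttacacctcccgg
Ccl5: actcccTGCTGCtttgcctacctctccctc
Ccl17: cgagagTGCTGCctggattacttcaaaggg
Ccl22: agtatcTGCTGCcaggactacatccgtcac
Ccl24: tcatctTGCTGCacgtcctttatttccaag
The stretches lie at chr11:82036500-82036529 (Ccl2), chr11:82046532-82046561 (Ccl7), chr11:83589368-83589397 (Ccl6), chr11:83575908-83575937 (Ccl9), chr11:83663476-83663505 (Ccl4), chr11:83529224-83529253 (Ccl5), chr8:94811206-94811235 (Ccl17), chr8:94746928-94746957 (Ccl22) and chr5:135572647-135572676 (Ccl24). Over the whole coding sequence the pairs Ccl2 and Ccl7, Ccl3 and Ccl4, and Ccl6 and Ccl9 were identical at 72.4% of 290, 71.4% of 273 and 70.6% of 344 aligned bases. The stretches of 31 bases that a read could share with another gene made up at most 3.98% of a transcript set, for Ccl9, and 0 for Ccl2, Ccl3, Ccl4, Ccl7, Ccl17 and Ccl22, so near-identical copies could take few reads of these genes. Antisense genes overlap Ccl2 (Gm17268, 0 counts in 11 libraries and 1 in olaparib replicate 4) and Ccl6 (E230016K23Rik, 6 to 157 counts beside 5389 to 45989 for Ccl6), and the strand setting of the counting is not given in the sources used here.

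Per kilobase of exon, Ccl6 was the highest of the 10 genes with DMSO, at 573 ± 155 CPM per kb (SD, n = 4), followed by Ccl24 at 297 ± 68.7, Ccl9 at 139 ± 50.9 and Ccl22 at 70.1 ± 22.6. The ranges of Ccl24 and Ccl9 touched at 215 CPM per kb. The ranges of Ccl6 and Ccl24 and of Ccl9 and Ccl22 did not overlap. Ccl7, Ccl3, Ccl2, Ccl17 and Ccl4 followed at 12.8, 8.18, 5.59, 5.14 and 3.56, each overlapping the next in range, and Ccl5 was lowest at 0.0935. With olaparib the order at the top was Ccl6 at 826 ± 178, Ccl9 at 266 ± 18.9, Ccl22 at 96.6 ± 46.2 and Ccl24 at 44.6 ± 18.3, of which the last pair overlapped in range. In MNA replicates 1, 3 and 4, Ccl9 led at 269 ± 60.2 (n = 3), above the ranges of Ccl24 at 157 ± 13.1 and Ccl6 at 142 ± 21.9, which overlapped each other, and Ccl3 came next at 64.7 ± 1.15.

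Ccl6 made up 48.6% to 56.7% of the summed level per kb with DMSO, 62.3% to 64.7% with olaparib and 18.8% to 20.3% in MNA replicates 1, 3 and 4. The share of Ccl24 was 25.0% to 28.9% with DMSO, 2.86% to 4.43% with olaparib and 20.1% to 22.6% in these MNA libraries. The share of Ccl9 was 9.9% to 14.8%, 17.8% to 23.7% and 34.5% to 39.7% in the same order. In MNA replicate 2 the shares were 41.8% for Ccl6, 33.2% for Ccl24 and 14.8% for Ccl9, with Ccl6 below the DMSO range, Ccl24 above it and Ccl9 within it, and all 3 outside the range of the other MNA libraries.

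**Figure D1:**
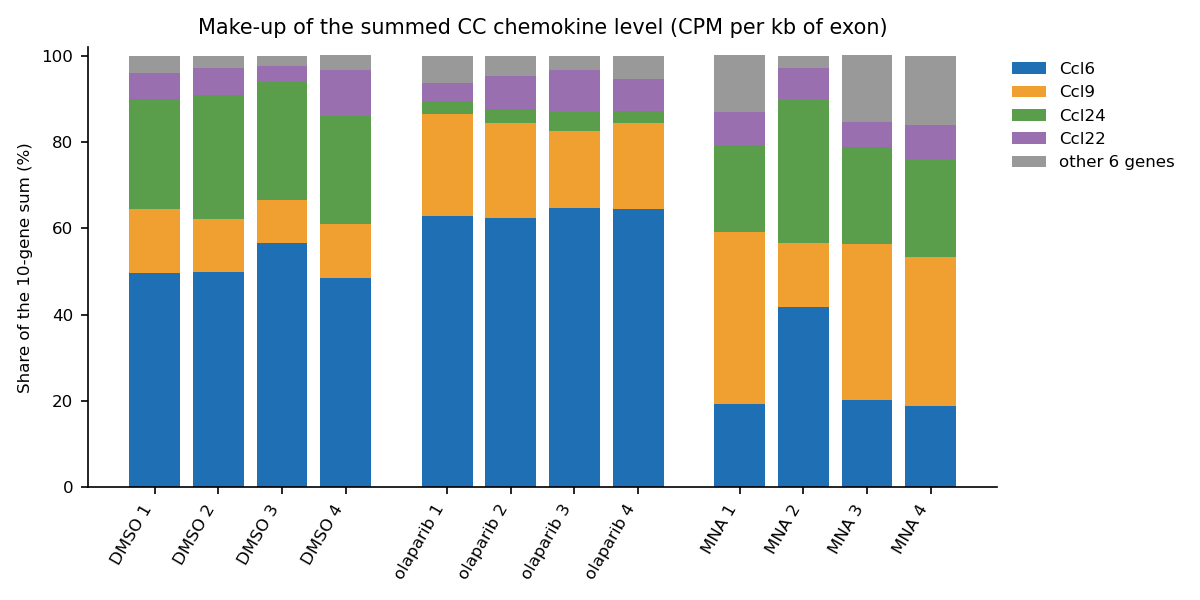
Share of each gene in the sum of the 10 CC chemokine levels (CPM per kb of exon, % on a linear axis) in each library, with 1 stacked bar a library and 4 libraries a group. Ccl6 (blue) fills 62.3% to 64.7% of the olaparib bars and 18.8% to 20.3% of MNA 1, 3 and 4, and Ccl24 (green) narrows to 2.86% to 4.43% with olaparib.

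Against DMSO, olaparib libraries had higher Ccl5, Ccl9 and Ccl17 and lower Ccl24. These are 3 higher and 1 lower of 10 genes at an adjusted p under 0.05 in edgeR's quasi-likelihood test, beside 14.3% higher and 12.8% lower of all 12849 tested genes. The median log2 fold change of the 10 genes was 0.85, and that of all tested genes was 0.004. MNA libraries had higher Ccl3, Ccl4 and Ccl5 and lower Ccl6 and Ccl7 than DMSO, 3 higher and 2 lower beside 16.3% and 12.3% of all genes, with a median of -0.13 beside 0.0 for all genes. Olaparib against MNA gave higher Ccl6, Ccl7 and Ccl17 and lower Ccl3 and Ccl24, 3 higher and 2 lower beside 10.9% and 10.9% of all genes, with a median of 0.50 beside -0.013. Ccl5 stands in both counts against DMSO although it passed the filter on low counts only through treated libraries, so that a difference was all but required of it. Leaving it aside, the counts were 2 higher and 1 lower of 9 genes with olaparib and 2 higher and 2 lower with MNA. The comparisons of the 2 treatments with DMSO share the DMSO libraries and are given side by side for that reason.

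Without MNA replicate 2 the common dispersion of the fit, a measure of the spread between libraries of a group, was 0.0123 in place of 0.0333, and more of the 10 genes passed the test. Olaparib against DMSO then had 7 higher and 1 lower, beside 22.5% and 21.2% of 13023 tested genes, MNA against DMSO 4 and 3, beside 27.2% and 26.9%, and olaparib against MNA 4 and 4, beside 21.5% and 20.7%. The genes added were Ccl2, Ccl3, Ccl4 and Ccl6 in the first comparison, Ccl9 and Ccl24 in the second, and Ccl4, Ccl5 and Ccl22 in the third. Ccl5 was again among the genes higher than DMSO with either treatment, so these counts carry the limit given for it above. The count for olaparib against DMSO was 2 when DMSO replicate 2 or 3 or olaparib replicate 3 or 4 was left out, and that for MNA against DMSO was 3 when MNA replicate 3 or 4 was left out. Over all tested genes these fits called 2326 of 13018, 2293 of 13016, 2436 of 13094 and 2152 of 12973 for olaparib. For MNA they called 463 of 13050 and 503 of 13037. In an edgeR fit of the MNA and DMSO libraries alone 0 of 9 tested genes passed, with 6 at an unadjusted p under 0.05, whereas DESeq2 with all 12 libraries called 7 of 10. Over all tested genes the edgeR fit called 0 of 12379 and DESeq2 4449 of 12849. In bulk RNA, fewer cells that make a chemokine and less RNA per cell cannot be told apart.

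**Figure D2:**
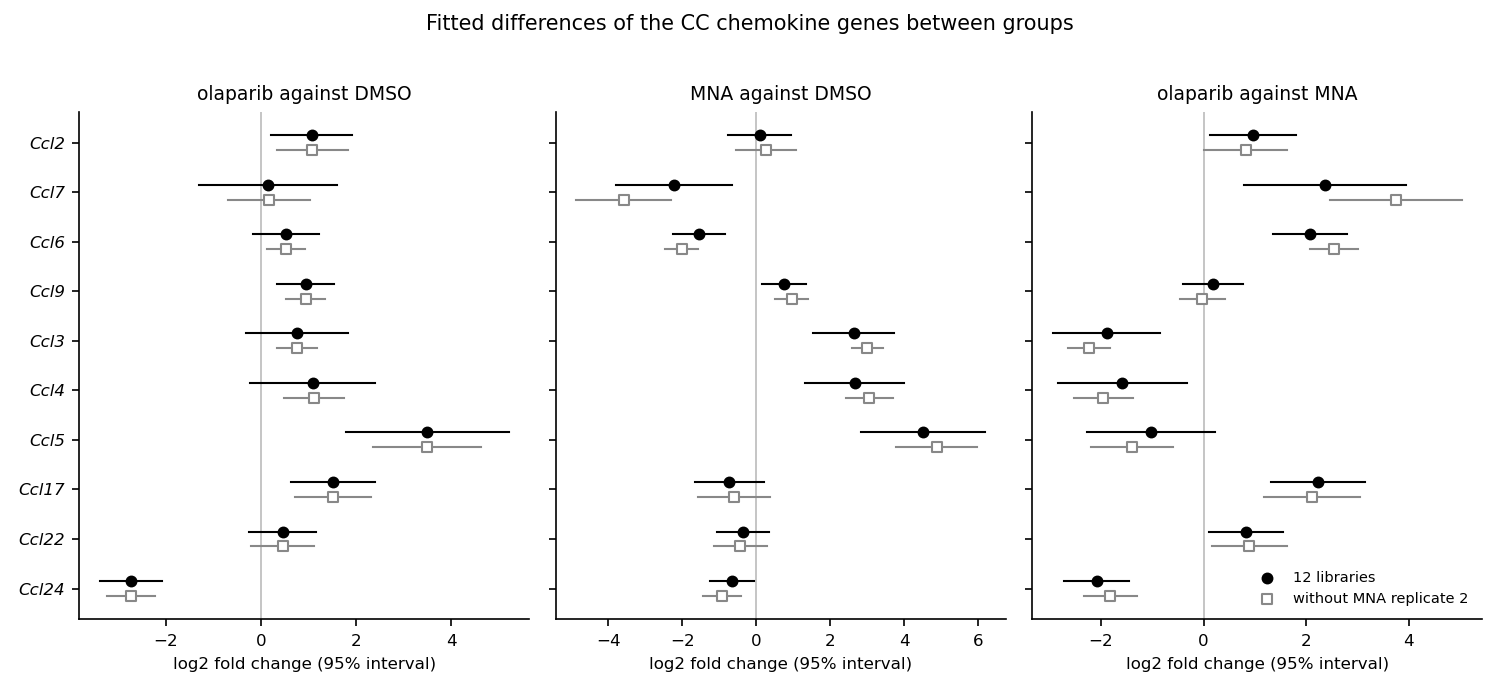
Fitted log2 fold change of each gene (horizontal axis, with its 95% interval) in the 3 comparisons, from all 12 libraries (filled circles) and without MNA replicate 2 (open squares). With all 12 libraries Ccl24 lies at -2.73 for olaparib against DMSO, and Ccl5 lies to the right of 0 in both comparisons with DMSO. The intervals of Ccl3 and Ccl4 are narrower without MNA replicate 2.

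Ccl2, the monocyte attractant MCP-1, was at 12.1, 4.64, 4.69 and 3.97 CPM in DMSO replicates 1 to 4, at 17.2, 10.4, 8.37 and 16.7 with olaparib and at 10.3, 4.48, 7.33 and 4.87 with MNA. The olaparib library of each number lay above the DMSO library of that number, in 4 of 4 cases, but the groups overlapped through DMSO replicate 1. The labels do not say that libraries of equal number form a pair, which limits this comparison and the block fits below. The log2 fold change with olaparib was 1.07 ± 0.39 (SE), with an adjusted p of 0.0596 in edgeR, and with the replicate number as a block it was 1.16 ± 0.26 with an adjusted p of 0.0119. With MNA it was 0.10 ± 0.39 (95% interval -0.75 to 0.95, adjusted p = 0.865), and 0.27 ± 0.38 without replicate 2 (adjusted p = 0.578). Olaparib against MNA gave 0.97 ± 0.39 (adjusted p = 0.0944), and 1.0 ± 0.26 with the block (adjusted p = 0.0247).

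Ccl7, the monocyte attractant MCP-3, had 17.5, 5.95, 9.52 and 7.97 CPM with DMSO, 15.7, 7.31, 5.81 and 16.5 with olaparib, and 1.81, 6.12, 0.463 and 0.282 with MNA. MNA replicates 1, 3 and 4, with 44, 12 and 7 counts, lay below every DMSO and olaparib library, and MNA replicate 2 lay among them. The log2 fold change with MNA was -2.21 ± 0.73 (adjusted p = 0.0406) and without replicate 2 it was -3.58 ± 0.60 (adjusted p = 0.00018). With all 4 MNA libraries the call was lost in 10 of the 12 fits that left out a library, with an adjusted p of up to 0.103, and among these fits it held without MNA replicate 2 and without olaparib replicate 3. With olaparib the log2 fold change was 0.16 (95% interval -1.29 to 1.6, adjusted p = 0.878). Olaparib exceeded MNA by 2.37 ± 0.73 (adjusted p = 0.0363), a call that 8 of those 12 fits lost, with an adjusted p of up to 0.0927, and by 3.75 ± 0.59 without MNA replicate 2 (adjusted p = 0.000198).

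Ccl12, a further CCR2 ligand that is no member of the 10, had 4, 2, 3 and 8 counts with DMSO, 58, 22, 19 and 75 with olaparib and 1, 2, 0 and 0 with MNA. All olaparib libraries lay above all others, and only they held 10 or more counts, so Ccl12 passed the filter through them alone and its test is not given. The ratio of summed counts of olaparib to MNA was 56.2 at equal depth, with an exact 95% interval of 18.9 to 275 that covers counting error only. Ccl8, also a CC chemokine gene outside the 10, had 0.535, 13.6, 1.12 and 1.49 CPM in the MNA libraries against 14.6 ± 3.67 (SD, n = 4) with DMSO. Its log2 fold change with MNA was -1.78 ± 0.78 (adjusted p = 0.0974), and -3.80 ± 0.47 without replicate 2 (adjusted p = 1.42e-05). With olaparib Ccl8 was at 8.19 ± 4.55 CPM (adjusted p = 0.426).

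Ccl6, a CCR1 ligand made constitutively by macrophages, was at 1290, 826, 1250 and 751 CPM with DMSO, at 1220, 1230, 1880 and 1600 with olaparib and at 295, 641, 253 and 217 with MNA. All 4 MNA libraries lay below all DMSO and olaparib libraries, with replicate 2 the highest of them. With MNA the log2 fold change was -1.55 ± 0.32 (adjusted p = 0.0142), and it was -2.01 ± 0.21 without replicate 2 (adjusted p = 2.9e-06). The call was kept in all 12 fits that left out a library, with an adjusted p of up to 0.0496. With olaparib it was 0.53 ± 0.32 (adjusted p = 0.226), and 0.53 ± 0.18 without MNA replicate 2 (adjusted p = 0.0313). Olaparib exceeded MNA by 2.08 ± 0.33 (adjusted p = 0.00121), and by 2.54 ± 0.22 without MNA replicate 2, a call kept in all alternatives run. The overlapping antisense gene E230016K23Rik was at 1.75 to 3.09 CPM with DMSO, 3.89 to 6.6 with olaparib and 0.232 to 1.5 with MNA, and its part in the Ccl6 values was not tested.

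Ccl9, the second CCR1 ligand and the neighbour of Ccl6, had 653, 340, 369 and 327 CPM with DMSO, 779, 747, 876 and 836 with olaparib, and 1030, 385, 761 and 674 with MNA. All olaparib libraries lay above all DMSO libraries, and MNA replicates 1, 3 and 4 did as well. With olaparib the log2 fold change was 0.94 ± 0.27 (adjusted p = 0.0251). This call was lost without DMSO replicate 2, 3 or 4 and without olaparib replicate 3 or 4, where the adjusted p reached 0.0728. With MNA it was 0.75 ± 0.27 (adjusted p = 0.0546), and with the replicate number as a block it was 0.74 ± 0.20 (adjusted p = 0.0259). The MNA library of each number lay above the DMSO library of that number in 4 of 4 cases. Whether equal numbers mark pairs is not given by the labels. Without MNA replicate 2 the change was 0.96 ± 0.20 (adjusted p = 0.00133). Between olaparib and MNA the difference was 0.19 (95% interval -0.40 to 0.77, adjusted p = 0.668), and -0.02 without MNA replicate 2 (-0.46 to 0.42, adjusted p = 0.95). The fitted changes of Ccl6 and Ccl9 had opposite signs with MNA and the same sign with olaparib, and the difference between the genes was not tested.

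Ccl3, the inflammatory chemokine MIP-1 alpha, was at 9.94, 5.33, 4.59 and 5.21 CPM with DMSO, at 12.8, 10.9, 8.54 and 9.68 with olaparib and at 49.7, 6.48, 50.4 and 48.7 with MNA. MNA replicates 1, 3 and 4 were close to each other and far above all other libraries, and MNA replicate 2 lay within the DMSO range. Against DMSO, MNA gave a log2 fold change of 2.64 ± 0.50 (adjusted p = 0.0142), and 3.01 ± 0.20 without replicate 2 (adjusted p = 4.38e-08). With olaparib it was 0.76 ± 0.49 (adjusted p = 0.266), and 0.77 ± 0.20 without MNA replicate 2 (adjusted p = 0.00617). Olaparib was lower than MNA by -1.89 ± 0.48 (adjusted p = 0.0165), a call lost without olaparib replicate 3 (adjusted p = 0.0501), and by -2.24 ± 0.19 without MNA replicate 2 (adjusted p = 9.29e-07).

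Ccl4, the related chemokine MIP-1 beta, followed at lower counts, with 4.45, 2.06, 1.57 and 1.30 CPM with DMSO, 6.15, 4.20, 3.83 and 5.33 with olaparib and 18.8, 1.61, 19.5 and 18.6 with MNA. Its pattern over the 12 libraries was that of Ccl3, with replicate 2 again the low MNA library. MNA gave a log2 fold change of 2.66 ± 0.61 (adjusted p = 0.0165), a call lost without MNA replicate 3 or 4 (adjusted p of up to 0.0542), and it was 3.06 ± 0.29 without replicate 2 (adjusted p = 1.12e-06). With olaparib it was 1.09 ± 0.61 (adjusted p = 0.197) with all libraries and 1.11 ± 0.29 without MNA replicate 2 (adjusted p = 0.00699). Olaparib against MNA gave -1.58 ± 0.58 (adjusted p = 0.0704), and -1.95 ± 0.27 without MNA replicate 2 (adjusted p = 6.54e-05).

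Ccl5, also known as RANTES, was the scarcest of the 10 genes with DMSO, with 2, 3, 2 and 3 counts in replicates 1 to 4. It had 11, 22, 23 and 57 counts with olaparib, at 0.389, 0.864, 0.968 and 1.99 CPM, and 57, 8, 73 and 79 with MNA, at 2.34, 0.287, 2.82 and 3.18 CPM. Every treated library lay above every DMSO library. Ccl5 passed the filter through 7 libraries with 10 or more counts, none of them a DMSO library, so its test was made on a gene that could hardly have passed without a difference. At equal depth the summed counts with olaparib were 11.9 times those with DMSO (exact 95% interval 6.23 to 25.5, counting error only), and those with MNA 23.5 times (12.6 to 49.8), or 31.1 times without replicate 2 (16.6 to 65.8). The calls of Ccl5 against DMSO therefore add no support beyond these counts. Between olaparib and MNA the log2 fold change was -1.02 ± 0.58 (adjusted p = 0.23), and -1.39 ± 0.37 without MNA replicate 2 (adjusted p = 0.00838).

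T and NK cells also make Ccl3, Ccl4 and Ccl5, and some markers of these cells moved with them while others did not. Of 9 listed T and NK cell markers 5 were tested. With MNA 4 of these were higher and 1, Klrb1c, was lower than with DMSO, beside 16.3% and 12.3% of all tested genes. Cd3e, Nkg7 and Prf1 had at most 4 counts in any DMSO library. They passed the filter through treated libraries alone, so their calls add no support. Gzmb, the protease granzyme B, was at 30.7, 1.0, 43.3 and 51.3 CPM in MNA replicates 1 to 4 and at 0.281 to 2.57 with DMSO, and Prf1, the pore former perforin, was at 3.87, 0.179, 4.90 and 4.91 against 0 to 0.134. Cd3e, which defines T cells, was at 0.576, 0.43, 0.463 and 0.764 CPM in MNA replicates 1 to 4, with replicate 2 close to replicate 3. It had 0 to 2 counts with DMSO and passed the filter through treated libraries. The other T cell markers were at few counts and were lowest in replicate 2 among the MNA libraries. Cd3g was at 0.288, 0.0716, 0.347 and 0.241 CPM, Cd3d at 0.288, 0.0358, 0.27 and 0.523, and Trac at 0.247, 0.0358, 0.0772 and 0.0804. Nkg7, at 1.97, 0.0716, 1.97 and 2.21, and Ncr1, at 0.452, 0.0, 0.154 and 0.121, were also lowest in replicate 2. Klrb1c, an NK cell receptor, was at 2.2 to 3.35 CPM with DMSO, 10.6 to 16.0 with olaparib and 2.1, 1.97, 1.43 and 0.885 with MNA. Among the neutrophil markers S100a9 reached 20.8 CPM in MNA replicate 4. The part of these markers in the values of Ccl3, Ccl4 and Ccl5 was not tested.

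**Figure D3:**
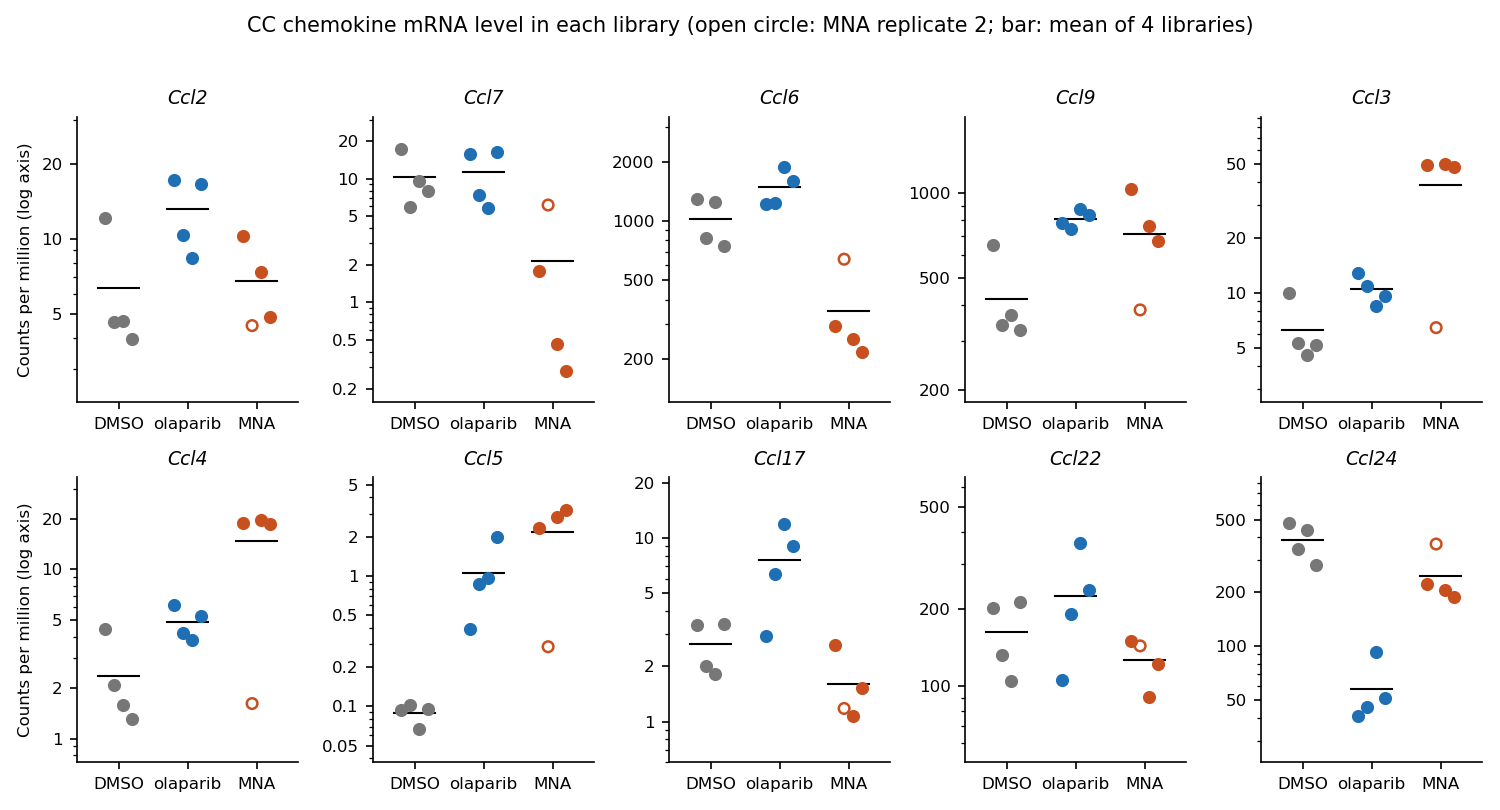
Level of each of the 10 genes in every library (vertical log axis, CPM, with its own range for each gene), with replicates 1 to 4 from left to right in each group, the mean as a bar and MNA replicate 2 as an open circle. MNA replicates 1, 3 and 4 stand at 48.7 to 50.4 for Ccl3 and 217 to 295 for Ccl6, away from the DMSO libraries, while replicate 2 lies nearer to DMSO, and the olaparib libraries stand below all others for Ccl24.

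Ccl17, the CCR4 ligand TARC, had 3.38, 2.0, 1.81 and 3.40 CPM with DMSO, 2.93, 6.37, 11.9 and 8.99 with olaparib and 2.63, 1.18, 1.08 and 1.53 with MNA. Olaparib replicates 2, 3 and 4 lay above all DMSO libraries and replicate 1 within their range, while all 4 olaparib libraries lay above all MNA libraries. The log2 fold change with olaparib against DMSO was 1.51 ± 0.41 (adjusted p = 0.0181). This call was lost without DMSO replicate 2 or 3 and without olaparib replicate 3 or 4, where the adjusted p reached 0.0587. With MNA it was -0.72 ± 0.42 (adjusted p = 0.205), and -0.60 ± 0.45 without replicate 2 (adjusted p = 0.284). Olaparib exceeded MNA by 2.23 ± 0.42 (adjusted p = 0.00347), and by 2.11 ± 0.44 without MNA replicate 2, a call kept in all alternatives run.

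Ccl22, the CCR4 ligand MDC, was at 202, 133, 105 and 213 CPM with DMSO, at 106, 192, 364 and 237 with olaparib and at 151, 144, 91.0 and 122 with MNA. All 3 groups overlapped. The log2 fold change was 0.46 with olaparib (95% interval -0.25 to 1.17, adjusted p = 0.306) and -0.36 with MNA (-1.07 to 0.35, adjusted p = 0.411), or -0.43 without replicate 2 (-1.15 to 0.30, adjusted p = 0.302). Olaparib against MNA gave 0.82 ± 0.33 (adjusted p = 0.0933), and 0.89 ± 0.34 without MNA replicate 2 (adjusted p = 0.049).

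Ccl24, the eosinophil attractant eotaxin-2, was at 476, 345, 436 and 279 CPM with DMSO, at 40.9, 46.2, 92.8 and 51.3 with olaparib and at 221, 366, 203 and 187 with MNA. All olaparib libraries lay below all DMSO and all MNA libraries. The log2 fold change with olaparib was -2.73 ± 0.30, a level 6.65-fold lower (adjusted p = 0.000134), and this call was kept in all alternatives run. With MNA it was -0.65 ± 0.28 (adjusted p = 0.0911), and without replicate 2 it was -0.92 ± 0.24 (adjusted p = 0.0053), with the other MNA libraries all below the DMSO libraries. Olaparib was lower than MNA by -2.08 ± 0.29 (adjusted p = 0.000557), and by -1.82 ± 0.24 without MNA replicate 2 (adjusted p = 4.04e-05). The eosinophil marker Siglecf, a sialic acid-binding receptor, was higher with olaparib. Ccr3, the receptor of Ccl24, had 16, 4, 7 and 5 counts with olaparib and 2, 0, 1 and 0 with DMSO. The listed marker Prg2 had 0 counts with DMSO and olaparib, and the defining markers Epx and Il5ra had at most 3 counts in every library. The part of these markers in the values of Ccl24 was not tested.

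Neighbouring genes did not all keep a fixed ratio of counts. Ccl6 and Ccl9, 9245 bases apart on the same strand, had a ratio of Ccl6 to Ccl9 of 1.97 to 3.38 with DMSO, 1.56 to 2.15 with olaparib, and 0.288 to 0.332 in MNA replicates 1, 3 and 4, with 1.67 in replicate 2. For Ccl2 to Ccl7, 8258 bases apart on the same strand, it was 0.493 to 0.78, 1.01 to 1.44 and 5.70 to 17.3, with 0.731 in MNA replicate 2. The ratio of Ccl3 to Ccl4, 13228 bases apart on opposite strands, was 2.23 to 4.0, 1.82 to 2.6 and 2.59 to 2.65, with 4.02 in MNA replicate 2, so all 3 groups overlapped for this pair. The ratio of Ccl22 to Ccl17, 58753 bases apart on the same strand, was 57.9 to 66.5 with DMSO, 26.3 to 36.2 with olaparib and 57.5 to 84.2 in MNA replicates 1, 3 and 4, with 122 in replicate 2.

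**Figure D4:**
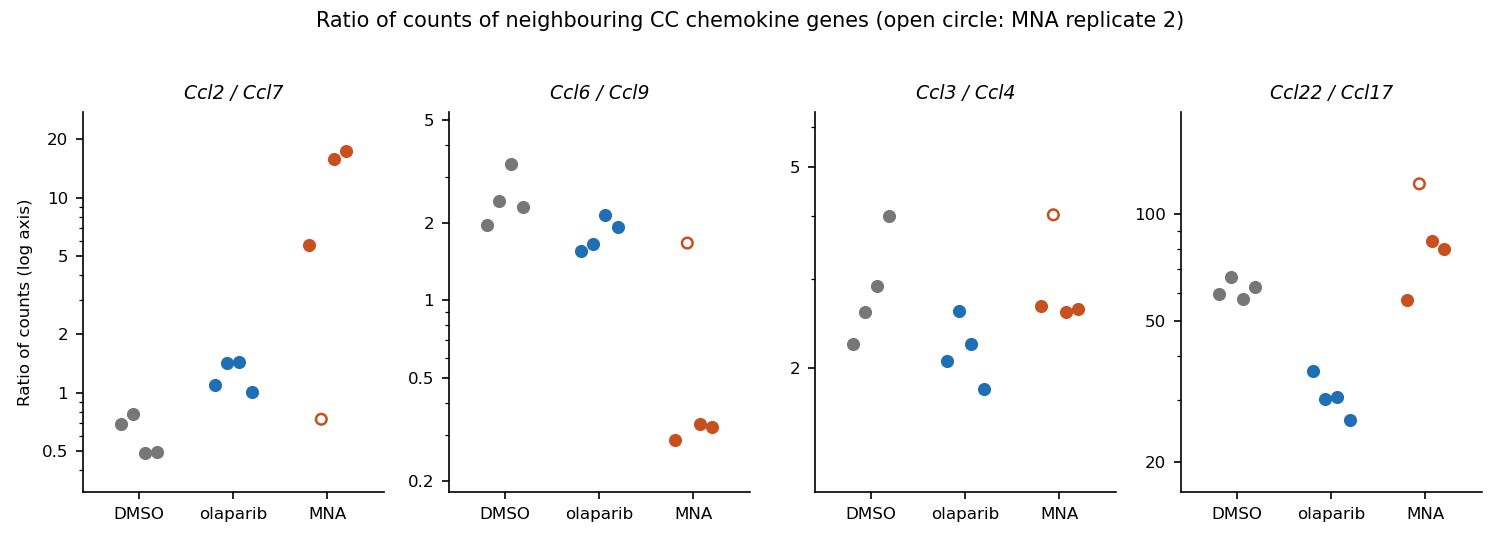
Ratio of the counts of 4 pairs of neighbouring CC chemokine genes in each library (vertical log axis, with its own range for each pair), with MNA replicate 2 as an open circle. The ratio of Ccl2 to Ccl7 runs from 0.493 to 0.78 with DMSO to 5.70 to 17.3 in MNA replicates 1, 3 and 4, whereas that of Ccl3 to Ccl4 stays between 1.82 and 4.02 in all libraries.

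Over the 12 libraries the log2 levels of Ccl3 and Ccl4 had a Pearson r of 0.97, those of Ccl6 and Ccl7 of 0.90, those of Ccl17 and Ccl22 of 0.86 and those of Ccl4 and Ccl5 of 0.85. These are descriptions over libraries that share 3 groups. Among all other tested genes, the 2 whose log2 level most resembled each member over the 12 libraries had r of 0.823 to 0.989. They were Nxpe5 and Sec14l1 for Ccl6, Tuba8 and Lrrc25 for Ccl9, Wfdc17 and S100a6 for Ccl4, Vps37b and Eif4a1 for Ccl3, and Pbxip1 and Ttc1 for Ccl5. For Ccl7 they were Msx3 and Gm5127, for Ccl24 Lin7c and Mcrip1, for Ccl2 Mgl2 and Pid1, for Ccl17 Naip1 and Ivd, and for Ccl22, with the lowest values, Trav4-3 at 0.851 and Dpy30 at 0.823.

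Promoter sequence was at hand for 5 of the 10 genes, Ccl3, Ccl6, Ccl9, Ccl17 and Ccl22, as 250 bases before the start site in RefSeq (GRCm38.p6). It was searched on both strands for letters modelled on sites of factors of the IL-4, interferon, AP-1 and NF-kB responses. The window of Ccl17, which was higher with olaparib, holds TTCNNNNGAA, the spacing STAT6 prefers, at -154 to -145 from the start site. Of 32851 mouse windows of this length 5.85% hold it. The motif is in capitals in the window, chr8:94810203-94810452 on the plus strand.
Ccl17: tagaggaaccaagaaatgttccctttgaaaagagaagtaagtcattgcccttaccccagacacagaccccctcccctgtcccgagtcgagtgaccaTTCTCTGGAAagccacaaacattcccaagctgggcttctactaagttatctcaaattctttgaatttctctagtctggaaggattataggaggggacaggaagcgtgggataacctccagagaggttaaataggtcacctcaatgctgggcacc
The window of Ccl9, which was higher with olaparib, holds TGAATCA at -53 to -47. This matches TGANTCA, the AP-1 letters searched with any base allowed in the centre, which 6.75% of all windows hold. The Ccl9 window also holds the kB consensus at -35 to -26 (3.9%). The last 100 bases before its start, chr11:83578637-83578736 on the minus strand, are shown with both in capitals.
Ccl9: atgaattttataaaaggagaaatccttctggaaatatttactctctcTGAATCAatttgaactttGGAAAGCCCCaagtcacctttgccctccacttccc
These letters and the interferon element core GAAANNGAAA, held by 2.98% of all windows, were not found in the windows of Ccl3, Ccl6 and Ccl22. A match describes the sequence and does not show binding.

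Of 14 further CC chemokine genes 4 were tested, and apart from Ccl12 and Ccl8 these were Ccl25 and Ccl27a, with 2.64 ± 0.693 and 1.52 ± 0.248 CPM with DMSO, which passed the test in no comparison. Of 15 receptor genes for CC chemokines 6 were tested. With olaparib 2 were higher and 2 lower, beside 14.3% and 12.8% of all tested genes. With MNA 2 were higher and 2 lower, beside 16.3% and 12.3%. Ccr2, the receptor of Ccl2, Ccl7 and Ccl12, was at 0.233 ± 0.101 CPM with DMSO (4 to 9 counts), 1.63 ± 0.483 with olaparib and 1.87 ± 2.28 with MNA, and it passed the filter through treated libraries alone. Ccr7, which leads dendritic cells to lymph nodes, had 1 to 12 counts with DMSO, 20 to 58 with olaparib and 12 to 258 with MNA, and 1 DMSO library held 10 or more. Ccrl2, which binds chemerin and does not signal, fell with olaparib by 0.98 on the log2 scale (adjusted p = 0.0197). The counts of receptors higher with either treatment are those of Ccr2 and Ccr7, so they carry this limit.

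Of 17 chemokine genes of the other classes 7 were tested, with 3 higher and 0 lower with olaparib, 1 higher and 0 lower with MNA, and 2 higher and 0 lower for olaparib against MNA, all in edgeR at an adjusted p under 0.05. The shares of all tested genes, higher and lower, were 14.3% and 12.8%, 16.3% and 12.3%, and 10.9% and 10.9% in this order. Pf4, platelet factor 4, was at 6.39 ± 1.22 CPM with DMSO and 34.5 ± 14.5 with olaparib, a log2 fold change of 2.44 (adjusted p = 0.00109). Ppbp, its neighbour in the CXC family, had 1 to 4 counts with DMSO, 10 to 37 with olaparib and 1 to 10 with MNA, so it passed the filter mainly through olaparib libraries and its call adds no support. Cx3cl1, the membrane-bound ligand of CX3CR1, changed by 2.03 with olaparib (adjusted p = 0.0329) and by 2.44 with MNA (adjusted p = 0.0213), or 2.79 without MNA replicate 2 (adjusted p = 5.54e-05).

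Of 21 genes of the IL-4 response 19 were tested, with 1 higher and 1 lower with olaparib, 3 higher and 6 lower with MNA, and 4 higher and 2 lower for olaparib against MNA, and with medians of 0.25, -0.62 and 0.39. The shares of all tested genes, higher and lower, were 14.3% and 12.8%, 16.3% and 12.3%, and 10.9% and 10.9% in this order. The genes of the list called with olaparib were Il4ra, the IL-4 receptor chain (0.39, adjusted p = 0.0467), and Pparg, a nuclear receptor that IL-4 induces (-1.14, adjusted p = 0.00352). With MNA, Flt1, a VEGF receptor, and Socs1, an inhibitor of cytokine signalling, changed by 2.31 (adjusted p = 0.0142) and 1.35 (adjusted p = 0.0192), and Klf4, a transcription factor, by -1.33 (adjusted p = 0.0192). Olaparib exceeded MNA for Retnla, which encodes a secreted product of IL-4-treated macrophages, by 1.51 (adjusted p = 0.00663), for Fn1, fibronectin, by 1.54 (adjusted p = 0.0108) and for Cdh1, E-cadherin, by 1.48 (adjusted p = 0.012). Without MNA replicate 2 the list had 6 higher and 4 lower, 3 and 11, and 9 and 2 in the 3 comparisons, beside 22.5% and 21.2%, 27.2% and 26.9%, and 21.5% and 20.7% of all tested genes.

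Of 21 regulators of NF-kB and interferon signalling 20 were tested, with 5 higher and 2 lower with olaparib, 6 higher and 1 lower with MNA, and 1 higher and 7 lower for olaparib against MNA, and with medians of -0.04, 0.18 and -0.17. The shares of all tested genes, higher and lower, were 14.3% and 12.8%, 16.3% and 12.3%, and 10.9% and 10.9% in this order. Irf7, a factor of the type I interferon response, changed by 1.47 with olaparib (adjusted p = 0.00232) and was higher with olaparib than with MNA by 1.79 (adjusted p = 0.000682). Rel, the NF-kB subunit c-Rel, changed by -0.50 with olaparib (adjusted p = 0.00342) and was lower than with MNA (-0.61, adjusted p = 0.00107), and Irf9 changed by 0.40 with olaparib (adjusted p = 0.0149). With MNA, Irf1, Stat2 and Irf5, all transcription factors of interferon responses, changed by 1.99 (adjusted p = 0.0142), 1.02 (adjusted p = 0.0144) and 0.73 (adjusted p = 0.0163). Irf1 was at 53.6 ± 10.6 CPM with DMSO and 213 ± 118 with MNA, and it was lower with olaparib than with MNA by -2.09 (adjusted p = 0.0046). Without MNA replicate 2 the list had 7 higher and 4 lower, 10 and 2, and 3 and 11 in the 3 comparisons. The shares of all tested genes in that fit were 22.5% and 21.2%, 27.2% and 26.9%, and 21.5% and 20.7%.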

How the data were processed

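Wildtype mouse BMDMs of 3 groups with 4 libraries each were sequenced as stranded mRNA libraries. Per the submitters' processing notes and the methods of the study, the authors aligned single-end reads with STAR 2.5.2b to GRCm38.p5 and deposited the read counts of each Ensembl gene as they were, not normalized. Library totals were 21146291 to 31446849 counts, of 35275 genes, and 34490 gene IDs were named from GENCODE. Genes were kept by filterByExpr (minimum count 10, minimum total 15), and the 12 libraries entered 1 fit of edgeR 4.0.16 in R 4.3.3 (quasi-likelihood F test, TMM normalization, no block), with Benjamini-Hochberg adjusted p under 0.05 over all 12849 tested genes. Standard errors came from the F values. CPM per kb used the summed exon length of each gene.

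The 10 genes, the further lists and the tests were chosen with earlier results of these data known. Named were all 10 genes, every tested CC chemokine outside them, up to 3 called genes with the smallest p for each list and comparison, and the 2 genes most correlated with each member. Deviations of same-numbered olaparib and DMSO libraries from their group means had r of 0.227, 0.172, 0.225 and 0.408 across genes. Libraries of unlike numbers were not compared, so these values do not show that the numbers pair the libraries. For MNA and DMSO r was 0.242, 0.114, -0.009 and 0.277, and for olaparib and MNA 0.07, 0.137, 0.131 and 0.392. Alternatives were DESeq2 1.42.0, other scalings and filters, a stricter threshold of 0.01, a replicate block, pairs of groups fitted alone and each library left out. Some items that these rules name are not reported here. Scripts were tested on simulated data. Sequences were read with Python 3.11.15 and Biopython 1.88. No pair of libraries of a group differed by less than the sampling noise. Exact intervals of ratios cover counting error only.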

Additional observations from a re-analysis of the deposited data

Results flagged for a closer look

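Of 30 groups of 4 libraries (10 genes in 3 groups), 5 held a library far from the other 3, by a gap to the nearest library divided by the range of the group above Dixon's 95% critical value. Chance flags about 1 in 20 groups. MNA replicate 2 was the lowest MNA library for Ccl3, at a gap of 0.96 of the range (6.48 CPM beside 48.7 to 50.4), and for Ccl4, at 0.951 (1.61 CPM beside 18.6 to 19.5). DMSO replicate 1 was the highest DMSO library for Ccl2, at 0.912 (12.1 CPM beside 3.97 to 4.69), for Ccl9, at 0.869 (653 CPM beside 327 to 369), and for Ccl3, at 0.861 (9.94 CPM beside 4.59 to 5.33). DMSO replicate 1 also had the lowest total of the 12 libraries, 21146291 counts, and the part of depth was not tested.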

How the results depend on the processing

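Over all alternatives, 518 results of the 10 genes kept their direction and their side of the threshold, 35 lost and 35 gained the call, and 8 turned in sign. These 8 and the turns among the list genes are of values that passed the test neither with all libraries nor in the alternative. Leaving out 1 library gave -0.18 to 0.60 (log2) for Ccl2 and -0.07 to 0.21 for Ccl25 with MNA against DMSO, and -0.44 to 0.85 for Ppbp. With olaparib against DMSO it gave -0.08 to 0.54 for Ccl7, -0.06 to 0.15 for Ccl27a, -0.22 to 0.05 for Irf1 and -0.13 to 0.42 for Retnla. For olaparib against MNA it gave -0.02 to 0.41 for Ccl9, -0.58 to 1.11 for Ccr2, -0.32 to 0.05 for Ccrl2, -0.77 to 0.07 for Cx3cl1 and -0.21 to 0.01 for Il4ra. Also for olaparib against MNA, Ccr2 was at 0.32 with the replicate block, and Ccrl2 at 0.03 with the block and without MNA replicate 2. Of the 10 genes, 4 passed the test for olaparib against DMSO, 5 for MNA against DMSO and 5 for olaparib against MNA. Ccl5 was called against DMSO at 0.05 in every alternative that tested it, so these counts carry the limit given for it above. With the replicate block the counts were 5, 6 and 6, with Ccl2 added in the first (adjusted p = 0.0119), Ccl9 in the second (0.0259) and Ccl2 in the third (0.0247), and the block changed no other call of these genes. Over all 12849 tested genes the block gave 3696, 4168 and 2852 calls. With the block and without MNA replicate 2 the counts of the 10 genes were 8, 7 and 9, beside 6116, 7165 and 5742 of 13023 genes. In fits of 2 groups alone they were 8, 0 and 4. The 0 for MNA against DMSO in edgeR stood beside 6 of 9 tested genes at an unadjusted p under 0.05, and DESeq2 with all libraries called 7, beside 4449 of all 12849 tested genes. At an adjusted p under 0.01 the counts were 2, 0 and 3, and the shares of all genes at that threshold are not given here. Leaving out 1 library gave 2 to 8, 3 to 7 and 4 to 8, where the highest counts were those without MNA replicate 2. Over all tested genes these fits called 2152 to 5694, 463 to 7042 and 1950 to 5503. Over all tested genes the counts were 3475, 3673 and 2800, and 5694, 7042 and 5503 without MNA replicate 2. Fits of 2 groups alone called 5720, 0 (4728 at an unadjusted p under 0.05) and 1808 genes, and leaving out MNA replicate 3 left 463 for MNA against DMSO. The causes were not tested. Depth limits Ccl5 with DMSO (2 to 3 counts a library) and Ccl7 with MNA (7 to 171).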
